A study of Mus musculus with 98 samples.

Results

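Mural cells of the mouse thymus, sorted as Ly51+gp38- cells, were compared between postnatal day 0 (P0) and 4 weeks of age. The members were chosen by the labels alone: the 6 bulk RNA-seq libraries labelled P0, wild-type and Ly51+gp38- were set against the 6 labelled 4 weeks, wild-type and Ly51+gp38-, which makes 12 of the 98 samples of the series. Both groups were wild-type C57BL/6 thymic stroma and carried no other allele or agent. Per the study's methods, thymi were digested with Liberase and DNase, and leukocytes were depleted from adult digests by anti-CD45 beads before sorting. Age and this step therefore cannot be told apart. The labels of the bulk libraries give CD45- for the sort. RNA was amplified by an ultra-low input protocol equivalent to Smarter-seq. Each age held 3 libraries whose titles begin with TXCK and 3 that begin with DFCK, prefixes the labels do not explain. Nothing says whether the libraries of an age came from separate mice, so the p-values measure the spread between these libraries, which may be partly technical.

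Mural cells wrap the endothelial tube of blood vessels. Pericytes lie along capillaries and venules and are held there by platelet-derived growth factor signalling, whereas vascular smooth muscle cells ring arteries and arterioles and set their diameter through actin and myosin. In the thymus the perivascular space is the route by which progenitors enter and mature T cells leave, and the mural cells at its border derive largely from the neural crest. Ly51 is glutamyl aminopeptidase, encoded by *Enpep*, and gp38 is podoplanin, encoded by *Pdpn*.

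The 12 libraries held between 6793831 and 15852166 counts in genes (median 12896746 at P0 and 11498742 at 4 weeks) and detected 13766 to 14731 genes at P0 against 12542 to 13577 at 4 weeks. Levels are given below as counts-per-million values (CPM), scaled by TMM factors, with the lowest, the median and the highest of the 6 libraries of an age. A gene was called changed when edgeR's quasi-likelihood test gave it an adjusted p below 0.05 (Benjamini-Hochberg over all genes tested); differences are log2 of 4 weeks over P0, given with their standard error (SE). In bulk RNA, fewer cells of a type and less RNA per cell cannot be told apart.

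The label was first set against marker genes. Summed over 6 pericyte markers the libraries held 27649 to 41402 CPM at P0 and 89709 to 114743 CPM at 4 weeks, and summed over 6 vascular smooth muscle markers 1770 to 2870 CPM and 6498 to 8909 CPM. *Rgs5* alone made up most of the pericyte sum at both ages (medians of 31419 and 97678 CPM), and of the 6 pericyte markers 3 rose and 2 fell. Within TXCK 1 rose and 3 fell, within DFCK and with a term for Y-linked counts 1 rose and 1 fell, without 4-week replicates 2 and 3 together 1 rose and 2 fell, and 1 fell when P0 replicate 1, 2 or 6 or 4-week replicate 4 or 6 was left out. Of the sorting antigens, *Enpep* was read at 17.9, 38.2 and 51.6 CPM at P0 and at 14.5, 126.99 and 140.5 CPM at 4 weeks, where 1 library of the older age lay below every P0 library. The antigens of other gates were read as well. *Pdpn* did not exceed 34.02 CPM, *Dpp4* (CD26) 25.1 CPM, *Pecam1* (CD31) 67.7 CPM and *Ptprc* (CD45) 69.2 CPM in any library. *Pecam1* was at most 4.79 CPM and *Ptprc* at most 6.63 CPM at P0. Their highest 4-week values were thus above every P0 value of *Enpep*. *Epcam* was at 0 in the 6 P0 libraries and reached 11.9 CPM at 4 weeks. In 4-week replicate 6 the sorting antigens summed to 146.99 CPM, of which *Enpep* was 14.5 CPM.

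RNA of other thymic cells moved with age. The study defines the mural population within Ter119-CD45-EpCAM- cells, a gate that would remove erythroid and epithelial cells, whereas the labels of the bulk libraries give only CD45- for the sort. Over 8 epithelial markers the sum was 14.8 to 258 CPM at P0 and 432 to 2463 CPM at 4 weeks, highest in 4-week replicates 2 and 3. Over 10 thymocyte markers it was 5.34 to 22.3 CPM against 100.3 to 331 CPM, with *Ptcra* and *Dntt* at 0 in the P0 libraries, and over 6 erythroid markers 0.0620 to 1.72 CPM against 3.41 to 558 CPM. Sums over 8 other leukocyte markers were 0.148 to 11.04 CPM and 1.57 to 70.1 CPM, and over 6 neural crest and glial markers 12.1 to 38.0 CPM and 26.7 to 141 CPM, with *Sox10* and *Foxd3* at 0 throughout. The fibroblast sum (205 to 985 CPM against 108.4 to 1507 CPM) overlapped between the ages, but at 4 weeks it followed the title prefix, with 450.3, 1094 and 1507 CPM in the TXCK libraries and 108.4, 182.03 and 331 CPM in the DFCK libraries, and of 8 fibroblast markers 3 were called higher within TXCK and 1 lower within DFCK. Sums of endothelial markers (471 to 717 CPM against 500.3 to 711 CPM) and of mesothelial markers (at most 6.63 CPM) overlapped between the ages. The endothelial sum hid single members, as *Cdh5* was at 0 in the 6 P0 libraries and was read at 4 weeks. Of 6 endothelial markers tested none was called higher and 1 was called lower (median 0.97). Within TXCK 1 of 8 tested was called higher (median 2.81), and within DFCK 1 of 4 tested was called lower (median -0.87). Y-linked genes also differed, with over 1 CPM in all in 1 of 6 libraries at P0 and 5 of 6 at 4 weeks. Counts from 4 refits are given with the gene groups, in the order of a term for Y-linked counts, leaving out the epithelial-rich 4-week replicates 2 and 3, TXCK alone and DFCK alone. Replicates 2 and 3 of 4 weeks are both DFCK libraries, so the refit without them and those by prefix cannot separate epithelial RNA from prefix. The part of the RNAs of other cells and of the sexes in the changes was not tested otherwise.

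**Figure D1:**
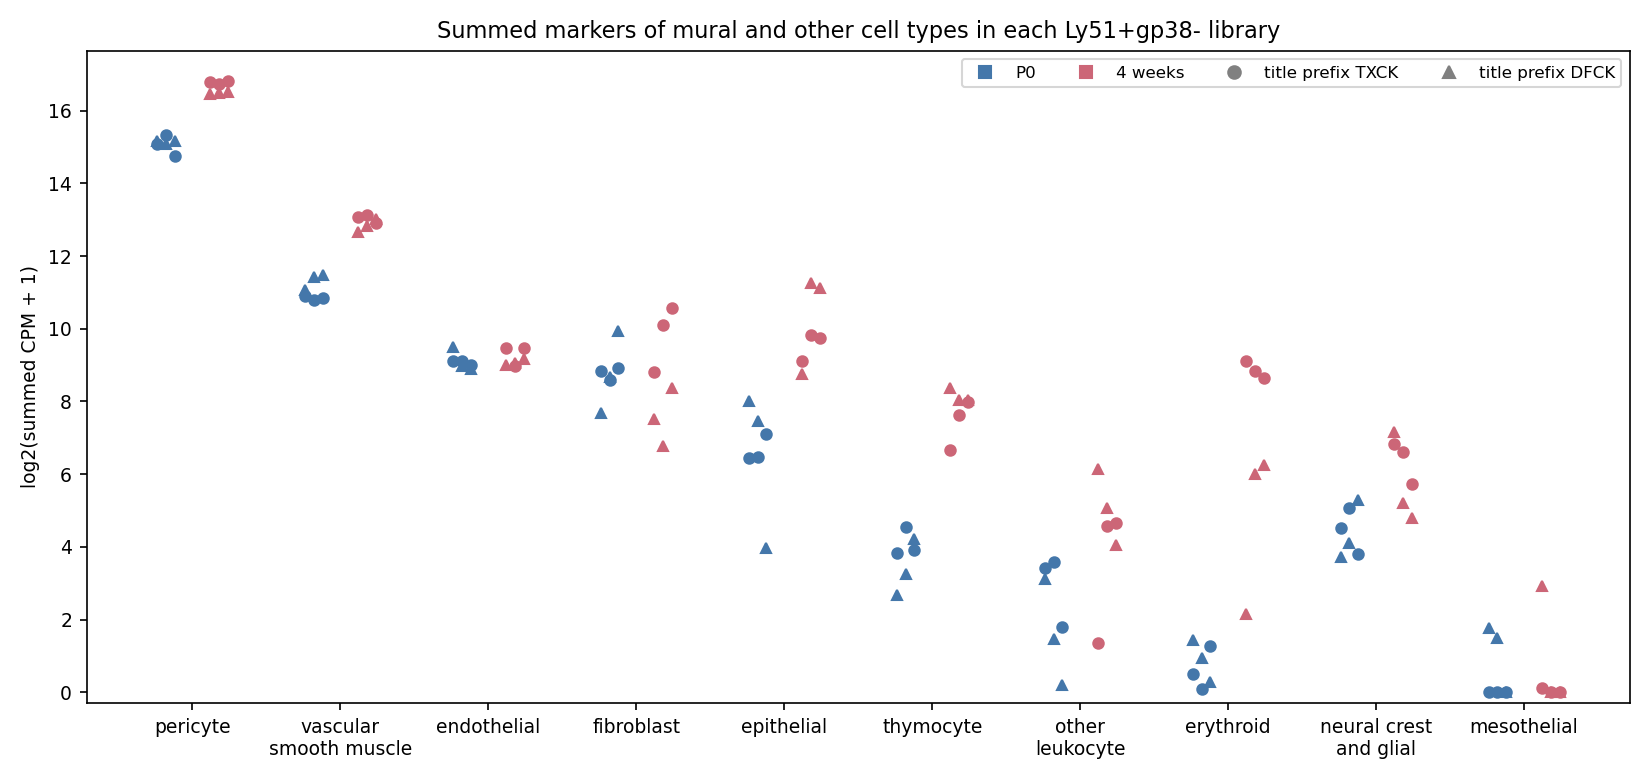
Summed CPM of each list of cell type markers, as log2 of the sum plus 1 (vertical axis), in each of the 12 Ly51+gp38- libraries, with P0 in blue, 4 weeks in red, and circles and triangles for the title prefixes TXCK and DFCK. Pericyte markers lie above every other list in each library, and the epithelial, thymocyte and erythroid sums lie higher at 4 weeks than at P0.

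Between P0 and 4 weeks 1422 of 11949 genes tested were called (11.9 percent), 770 higher (6.44 percent) and 652 lower (5.46 percent) at 4 weeks, and the median difference over all genes tested was -0.05. The libraries of the 2 ages did not overlap for 1214 genes, or 10.2 percent (5.26 percent above and 4.9 percent below P0). With the Y-linked term 398 genes rose and 333 fell, without the 2 epithelial-rich libraries 617 rose and 671 fell, within the TXCK libraries 419 and 343, and within the DFCK libraries 154 and 147. These shares are the background against which each gene group is read.

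Among the genes that meet the naming rule for the largest changes, several were read at 4 weeks and at 0 in every P0 library. The rule ranks by the fitted difference, which depends on the prior count where an age is at 0 throughout. It therefore favours such genes. *Scn4b*, a sodium channel beta subunit, was at 0 in the 6 P0 libraries and at 22.1, 47.7 and 86.5 CPM at 4 weeks, at least 1265-fold higher than the floor of 3 counts over the 6 libraries of an age. Such bounds, here and below, cover counting error only and not the larger spread between libraries, so they are no firm lower limits. *Pln*, phospholamban, the inhibitor of the sarcoplasmic calcium pump, had a P0 median of 0 and a highest P0 value of 1.91 CPM, against 75.1, 141 and 179.4 CPM at 4 weeks.

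*Sncg*, gamma-synuclein, rose from 0.0683, 0.548 and 2.15 CPM to 112.8, 144.2 and 185.1 CPM, a difference of 7.65 (SE 0.61, adjusted p = 3.59e-06). *C7*, the complement component, was at 2.11 CPM or less in the P0 libraries and at 51.6, 123 and 345 CPM at 4 weeks. *Skap1* and *Sla*, adaptor proteins of T cell receptor signalling, were at 0 at P0 and at medians of 15.2 and 19.3 CPM at 4 weeks, where the thymocyte markers were also higher. The other genes of this group were *Plekhb1*, *Rab27a*, *Ubd*, *Tmem255b* and *Brinp2*. As for every gene named by this rule, no overlap between the ages was a condition for naming them.

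The largest falls included *Igf2bp1*, an oncofetal RNA-binding protein, which was at 35.4, 62.6 and 78.4 CPM at P0 and at 0 in the 6 libraries at 4 weeks. By the same floor, with counting error only, it was at least 1202-fold lower. *Agtr2*, the type 2 angiotensin receptor, went from 19.2, 47.5 and 78.4 CPM to 0 in all 6 (at least 985-fold lower), and *Slitrk6*, a neuronal transmembrane protein, from 30.8, 51.3 and 69.1 CPM to 0 (at least 1009-fold lower). *Plagl1*, an imprinted zinc finger factor, went from 6.76, 13.2 and 30.2 CPM to 0 (at least 291-fold lower). The remaining genes of this group, *Syt4*, *Iqgap3*, *Cpa1*, *Sapcd2*, *Ercc6l*, *Acot1*, *Klf14* and *Tram1l1*, were likewise at 0 in every 4-week library, with lower bounds between 220-fold and 569-fold. *Iqgap3*, *Sapcd2* and *Ercc6l* are known in dividing cells.

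The contractile genes were higher at 4 weeks. Of 22 genes of the contractile apparatus, all of which were tested, 19 rose and 1 fell, 18 had ages that did not overlap, and the median difference was 1.63. *Acta2*, smooth muscle actin (chr19:34241090-34255590 in GRCm38), was read at 816, 1120 and 1770 CPM at P0 and at 3992, 4846 and 5411 CPM at 4 weeks. The lowest 4-week library was thus above the highest P0 library, and the difference was 1.91 (SE 0.18, adjusted p = 1.28e-05). *Myh11*, the smooth muscle myosin heavy chain, rose from 235, 301 and 383 CPM to 610, 1014 and 1414 CPM (1.72, SE 0.19, adjusted p = 3.58e-05).

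*Myl9*, the regulatory myosin light chain, was at 880, 1178 and 1411 CPM and then at 2652, 3263 and 3923 CPM, without overlap (1.51, SE 0.14). *Tpm1*, a tropomyosin that lies along the actin filament, went from 770, 881 and 1250 CPM to 1931, 2286 and 2535 CPM (1.24, SE 0.13). *Tagln*, *Cnn1* and *Lmod1*, which bind or nucleate actin, rose by 2.12, 1.90 and 2.15, and *Des*, the intermediate filament of muscle, by 1.13. *Actg2*, the enteric smooth muscle actin, was the 1 member that fell, from 105, 140 and 270 CPM to 34.4, 67.3 and 120 CPM, with overlapping ages (-1.16, adjusted p = 0.0304), and no member fell without P0 replicate 4, 5 or 6 or 4-week replicate 1, 2, 5 or 6. The counts were 18 up with the Y-linked term, 17 up and 1 down without the 2 epithelial-rich libraries, 17 up within TXCK and 11 up within DFCK.

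The CArG box, the site of serum response factor, was searched for in the 250 bases before each RefSeq gene start (build GRCm38.p6), since contractile genes are known targets of that factor. Of 17 contractile genes with a promoter in the table, 2 held it, *Myl9* and *Myl6*, against 1.62 percent of 27025 promoters. The promoter of *Myl9*, chr2:156775214-156775463 on the plus strand, is shown with the box in capitals.
Myl9 promoter: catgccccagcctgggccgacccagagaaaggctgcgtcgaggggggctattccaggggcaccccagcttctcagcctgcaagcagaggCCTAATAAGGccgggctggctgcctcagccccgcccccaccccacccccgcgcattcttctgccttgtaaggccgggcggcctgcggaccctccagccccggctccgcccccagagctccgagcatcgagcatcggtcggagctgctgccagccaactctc

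The pericyte genes went both ways. Of 22 tested, 6 rose and 6 fell, with a median of 0.11 and 6 without overlap between the ages. That median lay between -0.085 and -0.005 within TXCK, without the epithelial-rich libraries, and without P0 replicate 6 or 4-week replicate 3. In the 4 refits 2, 4, 3 and 2 rose and 2, 5, 4 and 1 fell. *Rgs5*, a regulator of G protein signalling and the most used pericyte marker (chr1:169655501-169695813), was at 23676, 31419 and 36636 CPM at P0 and at 86326, 97678 and 111819 CPM at 4 weeks (1.68, SE 0.11, adjusted p = 1.21e-06). *Rgs4*, its neighbour and paralog, rose from 220, 286 and 387 CPM to 1106, 1419 and 1529 CPM (2.22, SE 0.15). Neither gene's ages overlapped.

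Both subunits of the ATP-sensitive potassium channel of pericytes were called lower with all 12 libraries. At least 1 of these 2 calls was lost within DFCK and with the Y-linked term, where 1 pericyte marker fell. The same held without P0 replicate 1, 2 or 6 or 4-week replicate 4 or 6. *Abcc9*, the sulfonylurea receptor subunit, went from 840, 1097 and 1332 CPM to 393, 469 and 530 CPM without overlap (-1.20, SE 0.14, adjusted p = 6.37e-05). *Kcnj8*, the pore subunit, went from 1095, 1757 and 2063 CPM to 618, 1006 and 1417 CPM with overlap (-0.72, SE 0.20, adjusted p = 0.0272). *Colec11*, a collectin, *Gucy1a1*, a nitric oxide receptor subunit, *Art3* and *P2ry14*, a nucleotide sugar receptor, fell by 0.75, 0.43, 0.54 and 1.22. *Mcam*, *Notch3*, *Cspg4* and *Higd1b* rose by 0.84, 0.66, 0.60 and 0.52.

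*Pdgfrb*, the receptor that holds mural cells to the endothelium, was at 817, 1052 and 1357 CPM and at 582, 798 and 1027 CPM (-0.41, adjusted p = 0.163). *Ebf1*, a transcription factor of pericytes, was at medians of 987 and 1026 CPM (adjusted p = 0.942). Without P0 replicate 6, 4-week replicate 4 or 4-week replicate 6 3 pericyte genes fell and 4 rose.

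**Figure D2:**
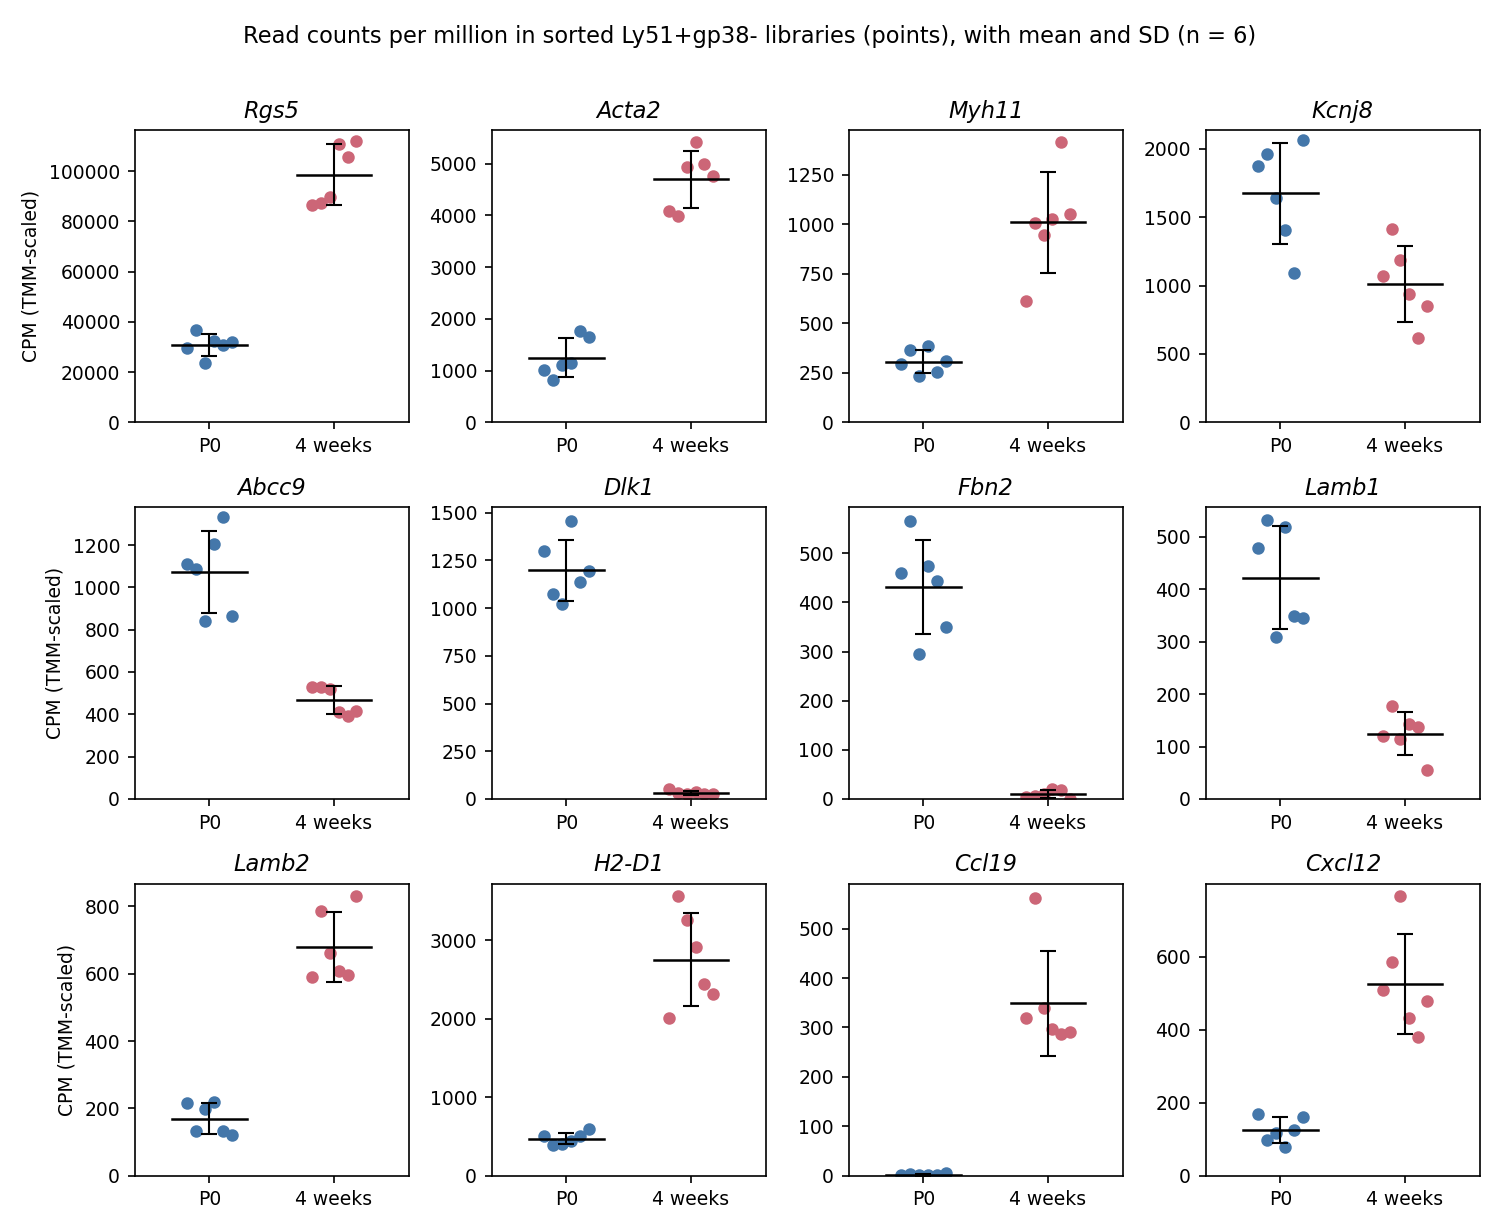
CPM of 12 genes (linear axes from 0) in each library of P0 (blue points) and 4 weeks (red points), with the mean and SD of each age (n = 6) in black. *Rgs5*, *Acta2*, *Myh11*, *Lamb2*, *H2-D1*, *Ccl19* and *Cxcl12* lie higher in every 4-week library than in any P0 library, *Abcc9*, *Dlk1*, *Fbn2* and *Lamb1* lie lower, and the ages overlap for *Kcnj8*.

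Genes of vessel tone and signalling were mostly not called. Of 45 vasoactive receptors and ion channels 34 were tested, 5 rose and 2 fell (median 0.42), and in the 4 refits 3, 4, 2 and 1 rose and 1, 2, 0 and 1 fell (median 0.26 within TXCK). *Kcnmb1*, the smooth muscle subunit of the large-conductance potassium channel, rose from 0, 5.79 and 19.4 CPM to 98.9, 105 and 214 CPM, and *P2rx1*, an ATP-gated channel of arteries, from 7.79, 20.6 and 43.6 CPM to 71.5, 100.5 and 140 CPM (2.15, SE 0.36). *Avpr1a*, the vasopressin receptor, fell from 160.5, 272 and 397 CPM to 105, 124.1 and 195 CPM (-1.05, adjusted p = 0.00463). *Itpr1*, *Ptgir* and *Kcna5* rose and *Adra2b* fell.

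Of 34 tested genes of PDGF, transforming growth factor beta (TGF-beta), bone morphogenetic protein (BMP) and angiopoietin signalling 10 rose and 1 fell (median 0.74; 6, 7, 5 and 3 rose and none fell in the 4 refits, and 6 rose without P0 replicate 1 and without 4-week replicate 4). *Pdgfa*, a ligand, rose from 76.7, 110 and 136.8 CPM to 219, 293 and 411 CPM (1.51, SE 0.18). *Chrdl1*, a BMP antagonist, rose by 3.11, *Angpt2*, the context-dependent Tie2 ligand, by 0.69, and *Id1* and *Id2*, targets of BMP receptors, by 1.12 and 1.49. *Tgfb2*, a TGF-beta ligand, fell from 153, 190 and 225 CPM to 27.6, 88.0 and 137.2 CPM (-1.12, adjusted p = 0.0184).

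In the Notch pathway 2 of 18 tested genes were called, the receptor *Notch3* and its target *Heyl* (80.1, 202 and 285 CPM against 355, 406 and 567 CPM, difference 1.23). The refits called 1, 0, 1 and 0 higher, and that without the epithelial-rich libraries called 1 lower, as did that without 4-week replicate 3 alone. Of 22 tested genes of insulin-like growth factor (IGF) and Wnt signalling 4 rose and 3 fell, and in the refits 1, 4, 1 and 1 rose and 1, 1, 1 and 2 fell. *Igfbp3*, an IGF-binding protein, fell from 395, 744 and 940 CPM to 41.6, 72.999 and 94.4 CPM (-3.22, SE 0.24, adjusted p = 1.73e-06). *Tcf7*, which thymocytes also express, rose by 3.06.

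Of 43 tested mesenchymal and mural transcription factors 3 rose and 1 fell, with 2, 2, 2 and 1 higher and 1, 2, 1 and 0 lower in the refits, and 2 lower without 4-week replicate 4. *Epas1*, the hypoxia-inducible factor 2 alpha, rose from 304, 368 and 475 CPM to 1105, 1247 and 1453 CPM (1.77, SE 0.13, adjusted p = 1.72e-06). *Nrip2*, a nuclear receptor interacting protein, rose from 236, 289 and 353 CPM to 690, 823 and 975 CPM (1.52). *Sox4* was at medians of 37.9 and 20.7 CPM (adjusted p = 0.0942), *Sox6* at 22.8 and 34.6 CPM, *Jam3* at 95.8 and 98.6 CPM and *Tgfb1* at 1.40 and 0.664 CPM, all overlapping, and *Sox11*, which was not tested, was at 0 in every 4-week library and at most 2.17 CPM at P0.

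Of 13 tested genes of sphingosine 1-phosphate, the lipid that draws mature T cells into blood, 1 rose and 2 fell. In each refit 1 rose, and 1 fell within TXCK and none in the others. Leaving out 1 library gave 1 to 3 that fell, with 1 without P0 replicate 3 or 4 or 4-week replicate 1, 2, 5 or 6, and 2 rose without P0 replicate 1. *Plpp3*, a lipid phosphatase that breaks it down, rose from 74.8, 98.1 and 122.05 CPM to 234, 376 and 500.1 CPM (1.96, SE 0.19, adjusted p = 1.76e-05). *Plpp1*, a related phosphatase, and *S1pr3*, a receptor, fell by 0.77 and 0.74, and the ages overlapped for both.

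Matrix genes fell more often than they rose. Of 25 elastic fibre genes 23 were tested, 6 fell and 1 rose (median -0.47), against 3, 5, 4 and 3 that fell and 1, 1, 2 and 1 that rose in the refits. The median was 0.20 within TXCK, and between -0.28 and -0.19 without P0 replicate 3, 5 or 6 or 4-week replicate 1, 2 or 3. *Fbn2*, the fibrillin of growing tissue, went from 295, 451 and 566 CPM to 0.193, 8.38 and 19.8 CPM (-5.46, SE 0.63, adjusted p = 7.2e-05). *Fbn1*, the main fibrillin of microfibrils, fell from 209, 293 and 343 CPM to 100.2, 127.3 and 136.7 CPM, and *Mfap2*, a microfibril glycoprotein, from 252, 331 and 530 CPM to 26.1, 41.9 and 96.9 CPM. *Ltbp1*, which tethers latent TGF-beta to microfibrils, was the 1 that rose, from 24.02, 36.8 and 95.9 CPM to 313, 407 and 679 CPM (3.34, SE 0.34, adjusted p = 2.77e-05).

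Of 25 tested genes of fibrillar and associated collagens and their processing 10 fell and 1 rose (median -0.59; 5, 10, 3 and 3 fell and 0, 1, 1 and 0 rose in the refits, and the rises were 0 to 2 with 1 library left out, 1 of them without 4-week replicate 1 or 3, 2 without P0 replicate 6 and 0 without any other). The fibroblast sum given above was higher within TXCK at 4 weeks, and its part in the matrix genes was not tested. *Col3a1* fell from 2835, 3005 and 3619 CPM to 1396, 1612 and 2259 CPM (-0.86, SE 0.12), *Col1a2* by 1.10 and *Col5a1* by 1.89, each without overlap. *Bmp1*, the procollagen C-proteinase, fell by 1.83.

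The basement membrane genes went both ways. Of 24 tested 5 rose and 6 fell, with 9 free of overlap, and in the refits 5, 5, 4 and 2 rose and 3, 6, 5 and 3 fell. *Lamb2*, a laminin beta chain, rose from 121.5, 165 and 220 CPM to 589, 635 and 832 CPM (2.001, SE 0.18, adjusted p = 8.15e-06), while *Lamb1*, another beta chain, fell from 310, 414 and 533 CPM to 55.5, 129 and 177 CPM (-1.76, SE 0.24, adjusted p = 0.00026). Likewise *Lama5* and *Col4a5* rose by 1.98 and 1.84, whereas *Lama4* and *Col4a1* fell by 0.97 and 1.28. *Hspg2* (perlecan) and *Col18a1* rose by 1.29 and 1.45, and *Nid1* and *Nid2* (nidogens) fell by 1.46 and 1.65.

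Of 25 imprinted growth genes 20 were tested, 12 fell, 14 had ages without overlap, and the median was -2.74. No member rose, in edgeR at an unadjusted p under 0.05 or in DESeq2. In the refits 11, 12, 11 and 10 fell. *Dlk1*, a secreted growth regulator, went from 1023, 1165 and 1457 CPM to 23.6, 29.2 and 53.2 CPM (-5.19, SE 0.21, adjusted p = 1.11e-08). *H19*, the noncoding RNA beside *Igf2*, went from 229, 339 and 399 CPM to 5.75, 7.24 and 25.4 CPM (-5.03, SE 0.38).

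*Igf2*, the fetal growth factor, fell from 92.8, 156.01 and 230.2 CPM to 19.03, 24.8 and 37.7 CPM (-2.62, SE 0.26), and its clearance receptor *Igf2r* from 91.5, 144.4 and 160 CPM to 15.9, 23.9 and 42.6 CPM (-2.44, SE 0.25). *Cdkn1c*, a cell cycle inhibitor, fell by 3.95 and *Gnas*, the stimulatory G protein locus, by 3.88. In all of these the highest 4-week library was below the lowest P0 library. Of 5 tested oncofetal RNA regulators, *Igf2bp1*, *Igf2bp2* and *Igf2bp3* fell, 2 of the list in each refit.

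Of 40 cell cycle genes, all tested, 16 fell (median -2.24; 25 without overlap). No member rose, in edgeR at an unadjusted p under 0.05 or in DESeq2. *Top2a*, the topoisomerase that untangles replicated DNA, fell from 79.9, 135.7 and 153 CPM to 3.07, 19.01 and 29.6 CPM (-2.82, SE 0.44, adjusted p = 0.000731). *Ccnb2*, a mitotic cyclin, fell from 153, 197 and 254 CPM to 1.89, 21.0 and 51.5 CPM (-3.17, SE 0.53), and *Ube2c*, an enzyme of mitotic exit, by 2.24. *E2f1*, the S phase activator, was at 1.73, 5.96 and 13.3 CPM at P0 and at 0 in every 4-week library. In the refits 11, 13, 7 and 2 cell cycle genes fell.

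Cell cycle promoters often hold the cell cycle homology region, searched for here as TTTGAA or TTTAAA on either strand. One or the other was found in 14 of 32 cell cycle promoters (43.8 percent), against 28.1 percent of 27025. The *Top2a* promoter, chr11:99024190-99024439 on the minus strand, is printed with its 2 matches, TTTGAA and its reverse complement TTCAAA, in capitals.
Top2a promoter: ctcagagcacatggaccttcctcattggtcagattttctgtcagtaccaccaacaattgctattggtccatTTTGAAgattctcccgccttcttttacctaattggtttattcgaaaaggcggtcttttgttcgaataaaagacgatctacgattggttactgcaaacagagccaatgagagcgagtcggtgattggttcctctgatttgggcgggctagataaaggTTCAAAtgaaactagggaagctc

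**Figure D3:**
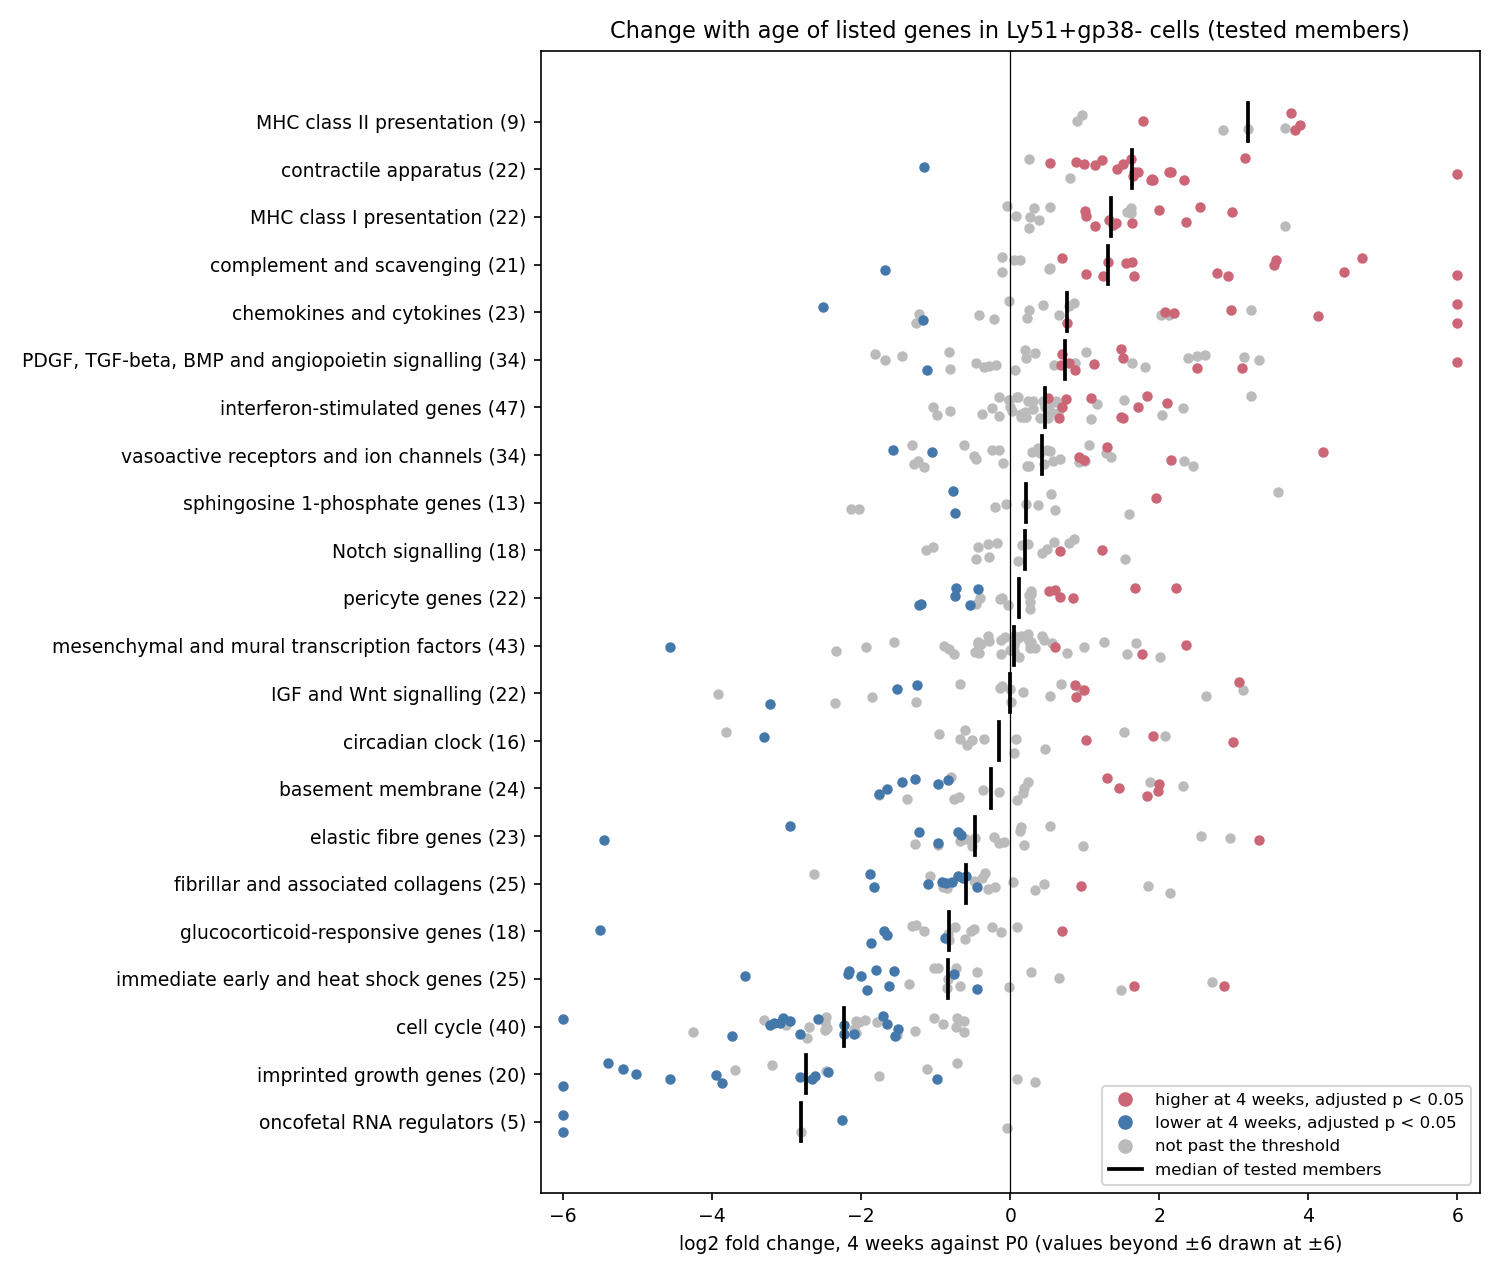
Log2 of 4 weeks over P0 (horizontal axis, drawn at the edge beyond 6 in size) for each tested gene of the 22 gene lists, 1 point per gene, red for genes called higher, blue for genes called lower and grey for the others, with a black bar at the median of each list. Contractile, major histocompatibility complex and complement genes lie mostly right of 0, and imprinted and cell cycle genes left of it.

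Of 24 major histocompatibility complex (MHC) class I genes 22 were tested, 11 rose (median 1.35), and for 11 the ages did not overlap. No member fell, in edgeR at an unadjusted p under 0.05 or in DESeq2. *B2m*, the invariant light chain (chr2:122147686-122153083), rose from 296, 432 and 564 CPM to 958, 1284 and 1891 CPM (1.63, SE 0.20, adjusted p = 0.000113). *H2-K1* rose from 34.1, 43.8 and 77.9 CPM to 242, 366 and 590.1 CPM (2.97, SE 0.25) and *H2-D1* from 396, 469 and 596 CPM to 2013, 2681 and 3565 CPM (2.54, SE 0.16). These heavy chain genes have near-identical copies, so how reads were split among them is uncertain. *Tap2*, the peptide transporter, rose by 1.38 and *Tapbp*, tapasin, by 1.13. In the refits 10, 9, 5 and 4 rose.

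Of 9 tested MHC class II genes 4 rose, *Cd74*, *H2-Aa*, *H2-Ab1* and *H2-Eb1*. *Cd74*, the invariant chain, was at 15.2, 52.8 and 110 CPM at P0 and at 301, 500 and 1924 CPM at 4 weeks. Its 2 highest values, 1534 and 1924 CPM, were in replicates 2 and 3, the libraries with the most epithelial RNA. Without them 2 class II genes were called, against 4 with the Y-linked term, 2 within TXCK and 1 within DFCK.

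Of 53 interferon-stimulated genes 47 were tested, 10 rose (median 0.47), and 3 were free of overlap, *Gbp2*, *Tgtp2* and *Ifitm3*. None fell in edgeR at the adjusted threshold, 2 did at an unadjusted p under 0.05 and 1 did in DESeq2. *Gbp2*, a guanylate-binding protein, rose from 49.8, 76.0 and 97.8 CPM to 157.95, 228 and 242 CPM (1.52, SE 0.18, adjusted p = 9.45e-05). *Irf7*, a transcription factor of the interferon response, was at 32.1, 42.5 and 61.1 CPM and at 45.4, 85.6 and 140 CPM, with overlap (1.08, adjusted p = 0.0194). The refit with the Y-linked term left 5 that rose, without the 2 epithelial-rich libraries 4 rose and 1 fell, without 4-week replicate 2 alone 6 rose and 1 fell, without P0 replicate 3 or 5 1 fell, and within TXCK and DFCK 2 and 3 rose.

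The interferon-stimulated response element, searched for as GAAA, any 2 bases and GAAA on either strand, was in 20 of 39 promoters of interferon-stimulated genes (51.3 percent) and in 3 of 20 of MHC class I genes (15 percent), against 3.46 percent of 27025. Promoters of *B2m*, chr2:122147437-122147686, and *Gbp2*, chr3:142620413-142620662, both on the plus strand, are shown with the match in capitals, which in *Gbp2* reads as TTTCACTTTC since it lies on the other strand.
B2m promoter: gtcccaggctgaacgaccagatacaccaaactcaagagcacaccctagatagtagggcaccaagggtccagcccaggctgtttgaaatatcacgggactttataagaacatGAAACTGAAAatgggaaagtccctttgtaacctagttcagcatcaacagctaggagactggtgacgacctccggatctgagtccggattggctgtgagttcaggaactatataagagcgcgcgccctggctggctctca
Gbp2 promoter: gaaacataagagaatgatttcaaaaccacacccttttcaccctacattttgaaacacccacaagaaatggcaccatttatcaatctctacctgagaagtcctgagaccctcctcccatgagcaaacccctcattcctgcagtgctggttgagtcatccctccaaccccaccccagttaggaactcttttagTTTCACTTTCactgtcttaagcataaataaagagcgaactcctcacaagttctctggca

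Of 23 tested chemokines, cytokines and their receptors 7 rose and 2 fell (median 0.76, or 0.49 without 4-week replicate 3, 0.39 without both epithelial-rich libraries and 0.41 within DFCK; 5, 7, 6 and 4 rose and 0, 2, 2 and 0 fell in the refits, and none fell without P0 replicate 1, 2 or 3 or 4-week replicate 4, 5 or 6). *Cxcl12*, which retains progenitors and guides thymocytes, rose from 79.1, 121 and 168.2 CPM to 379, 493 and 765 CPM (2.07, SE 0.21, adjusted p = 2.77e-05). *Ackr3*, its scavenging receptor, rose from 10.8, 27.4 and 46.8 CPM to 86.02, 125.4 and 171 CPM (2.20, SE 0.30). *Ccl19*, a ligand of CCR7, was at 0.572, 1.42 and 5.71 CPM at P0 and at 287, 308 and 563 CPM at 4 weeks (7.28, SE 0.52, adjusted p = 1.58e-06).

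*Ccl21a*, another CCR7 ligand with near-identical gene copies, rose by 7.52, from at most 2.48 CPM to 29.0, 87.3 and 179.05 CPM. The part of epithelial RNA in this rise was not tested. *Ccl25*, a thymic epithelial chemokine, rose from 7.45, 19.3 and 42.4 CPM to 166, 200.2 and 979 CPM, and its 2 highest values, 444 and 979 CPM, were again in replicates 2 and 3. *Ccl2* and *Cxcl1*, which recruit monocytes and neutrophils, fell by 1.18 and 2.51. The ages overlapped for both.

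Complement and scavenging genes rose in 14 of 21 tested and fell in 1 (median 1.32; 12 without overlap). *C3*, the central component, rose from 5.24, 14.2 and 20.2 CPM to 209, 270 and 503 CPM (4.48, SE 0.36, adjusted p = 3.59e-06). *Clu*, clusterin, rose from 24.4, 34.8 and 51.2 CPM to 150.6, 284 and 340 CPM (2.93, SE 0.24), and the inhibitor *Serping1* by 1.66. *Colec12*, a scavenger receptor, fell by 1.68. In the refits 10, 12, 12 and 6 rose and 1 fell in each.

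Immediate early and heat shock genes, which respond within minutes to growth factors and to tissue handling, fell in 10 of 25 tested and rose in 2 (median -0.83; 11 without overlap). *Egr1* fell from 1226, 2240 and 2597 CPM to 67.8, 525 and 841 CPM (-2.01, SE 0.42, adjusted p = 0.00562) and *Egr2* from 57.2, 139.1 and 295 CPM to 3.15, 11.5 and 31.4 CPM (-3.56, SE 0.58). *Fos* itself was at 679, 1060 and 1402 CPM and at 45.3, 711 and 1023 CPM (adjusted p = 0.411), and *Fosb* at medians of 31.3 and 63.6 CPM (adjusted p = 0.83). The 2 that rose were the heat shock genes *Hspb1* (2.86) and *Hsph1* (1.67). In the refits 1, 2, 2 and 1 rose and 1, 9, 6 and 1 fell. Leaving out P0 replicate 2 or 4-week replicate 1 gave 4 that rose, and leaving out P0 replicate 1 or 5 or 4-week replicate 5 or 6 gave 1.

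The change with age in mural cells was then compared with the mean change in the other 3 sorted nonepithelial populations, CD31+ endothelial cells and gp38+CD26+ and gp38+CD26- fibroblasts, each with 6 libraries per age except that 1 gp38+CD26+ library at 4 weeks with 25702 counts was left out. This difference of differences was fitted with the populations of an age taken as independent, although their libraries may share animals. It passed the test for 438 of 15704 genes (2.79 percent), or for 333 with a replicate block from the title numbers. Of the 438 genes, 166 were above (1.06 percent) and 272 below (1.73 percent) the mean of the others. Of the 22 contractile genes 4 were above it, *Tpm1*, *Myl6*, *Flna* and *Pln*. *Tpm1* changed by 1.24 in mural cells, 0.84 in CD31+, -0.65 in gp38+CD26+ and -0.07 in gp38+CD26- cells, a difference of 1.21 (adjusted p = 1.8e-06).

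Where a population held 3 counts or fewer over an age, the fitted difference depends on the prior count and is no measured size, so it is left out here, and levels are given for some of these genes. *Pln*, above the others in mural cells (adjusted p = 0.0043), did not exceed 13.99 CPM at P0 or 9.26 CPM at 4 weeks in CD31+ cells, or 2.72 CPM in either fibroblast population. *P2rx1* (adjusted p = 0.0475) reached at most 8.36 CPM in those populations at P0 and 5.51 CPM at 4 weeks. Its call was lost with a replicate block from the title numbers, as given below. *Acta2* changed by 3.28, 1.16 and 0.90 in the other populations and *Rgs5* by 4.24, 0.41 and 0.98, and the difference of neither passed (adjusted p = 1 for both). In the scaling over the 4 populations, *Acta2* medians at P0 and 4 weeks were 1086 and 4790 CPM in mural cells. In CD31+, gp38+CD26+ and gp38+CD26- cells they were 1.40 and 34.3, 4.72 and 9.12, and 82.2 and 187.4 CPM. *Rgs5* medians were 30526 and 96122 CPM in mural cells, and 52.3 and 1143, 4.10 and 3.21, and 676 and 1531 CPM in the others. The changes in the others thus rest on far lower levels. The difference was 1.41 for *Plpp3* (adjusted p = 3.67e-07) and -1.67 for *Plpp1* (adjusted p = 1.93e-06). *Klf4* and *Col18a1* were above the other populations by 1.57 and 2.45, and *C3* was above their mean (adjusted p = 0.00374). *C3* was at most 3.58 CPM at P0 and 0.0734 CPM at 4 weeks in CD31+ cells and changed by 4.61 and 4.75 in the fibroblasts. Its change in mural cells was thus above that of CD31+ cells, where it was near 0, and close to but not above that of either fibroblast population. *Myl6* changed by 1.68 in gp38+CD26- cells, about the same as in mural cells, and by -0.36 and 0.58 in the others.

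Imprinted genes had medians of -2.07, -2.31 and -3.37 in the other populations, and 2 members were above and 2 below their mean. *Igf2* fell less in mural cells than elsewhere, where it changed by -5.60, -4.91 and -6.18 (difference 2.96, adjusted p = 8.9e-08). *Gnas* and *Igf2r* fell further than elsewhere, with differences of -2.54 and -1.67. *Peg10* was above them as well, with 0 CPM in every 4-week CD31+ and gp38+CD26- library, and its own change in mural cells, -3.69, did not pass (adjusted p = 0.0605). Of 24 MHC class I genes none was above and 4 were below the other populations, whose medians were 1.13, 1.72 and 1.86 against 1.37 in mural cells. They were *Tapbp* (-0.58), *Psmb8*, a proteasome subunit (-1.08, but 0.24 against CD31+ alone), *H2-T22* (-0.78) and *H2-Q6*, heavy chains with near-identical copies. Of 40 cell cycle genes 1 was below, *E2f1*, with medians of -1.78, -0.61 and -1.71 in the others against -2.22 in mural cells.

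Of 25 elastic fibre genes 4 were below the other populations and none above. Of 28 genes of fibrillar and associated collagens and their processing the counts were 3 and none, and of 27 basement membrane genes 2 and 1. The elastic fibre genes were *Fbn1* (-1.22 in mural cells against -0.78, 1.38 and 0.40, adjusted p = 0.0117), *Ltbp4*, which binds latent TGF-beta (-0.66 against 3.28, 1.42 and 1.49), *Efemp1* and *Loxl4*. The genes of the collagen list were the processing genes *Bmp1* and *P4hb*, a prolyl hydroxylase subunit, and *Col8a1*. In mural cells *Col8a1* was at medians of 1.64 CPM at P0 and 0.301 CPM at 4 weeks. Those of the basement membrane list were *Lamb1* and *Nid1* below and *Col18a1* above. Of these, *Ltbp4*, *Efemp1*, *Loxl4*, *P4hb* and *Col8a1* were named after their values were seen. *Iqgap3*, *Sapcd2*, *Ercc6l*, *E2f1*, *Cenph*, *Rad51ap1* and *Adamts7* were below them as well. *Cenph* and *Adamts7* did not exceed 0.156 and 0.479 CPM in the 4-week mural libraries, where the other 5 were at 0. *Lck* was above them by 5.48, and so were *Dok2* and *Rab27a*. *Lck* is 1 of the 10 thymocyte markers summed above, so the rise of that sum includes its own. The part of thymocyte RNA in its change was not tested. The number of calls was 259 with the shallow library put back, 273 without the 2 epithelial-rich libraries and 894 with DESeq2. With a replicate block from the title numbers it was 333, and *Bmp1*, *Dpp4*, *Efemp1*, *Ercc6l*, *H2-Q6*, *Klf4*, *Loxl4*, *P2rx1* and *Tapbp* lost their call.

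**Figure D4:**
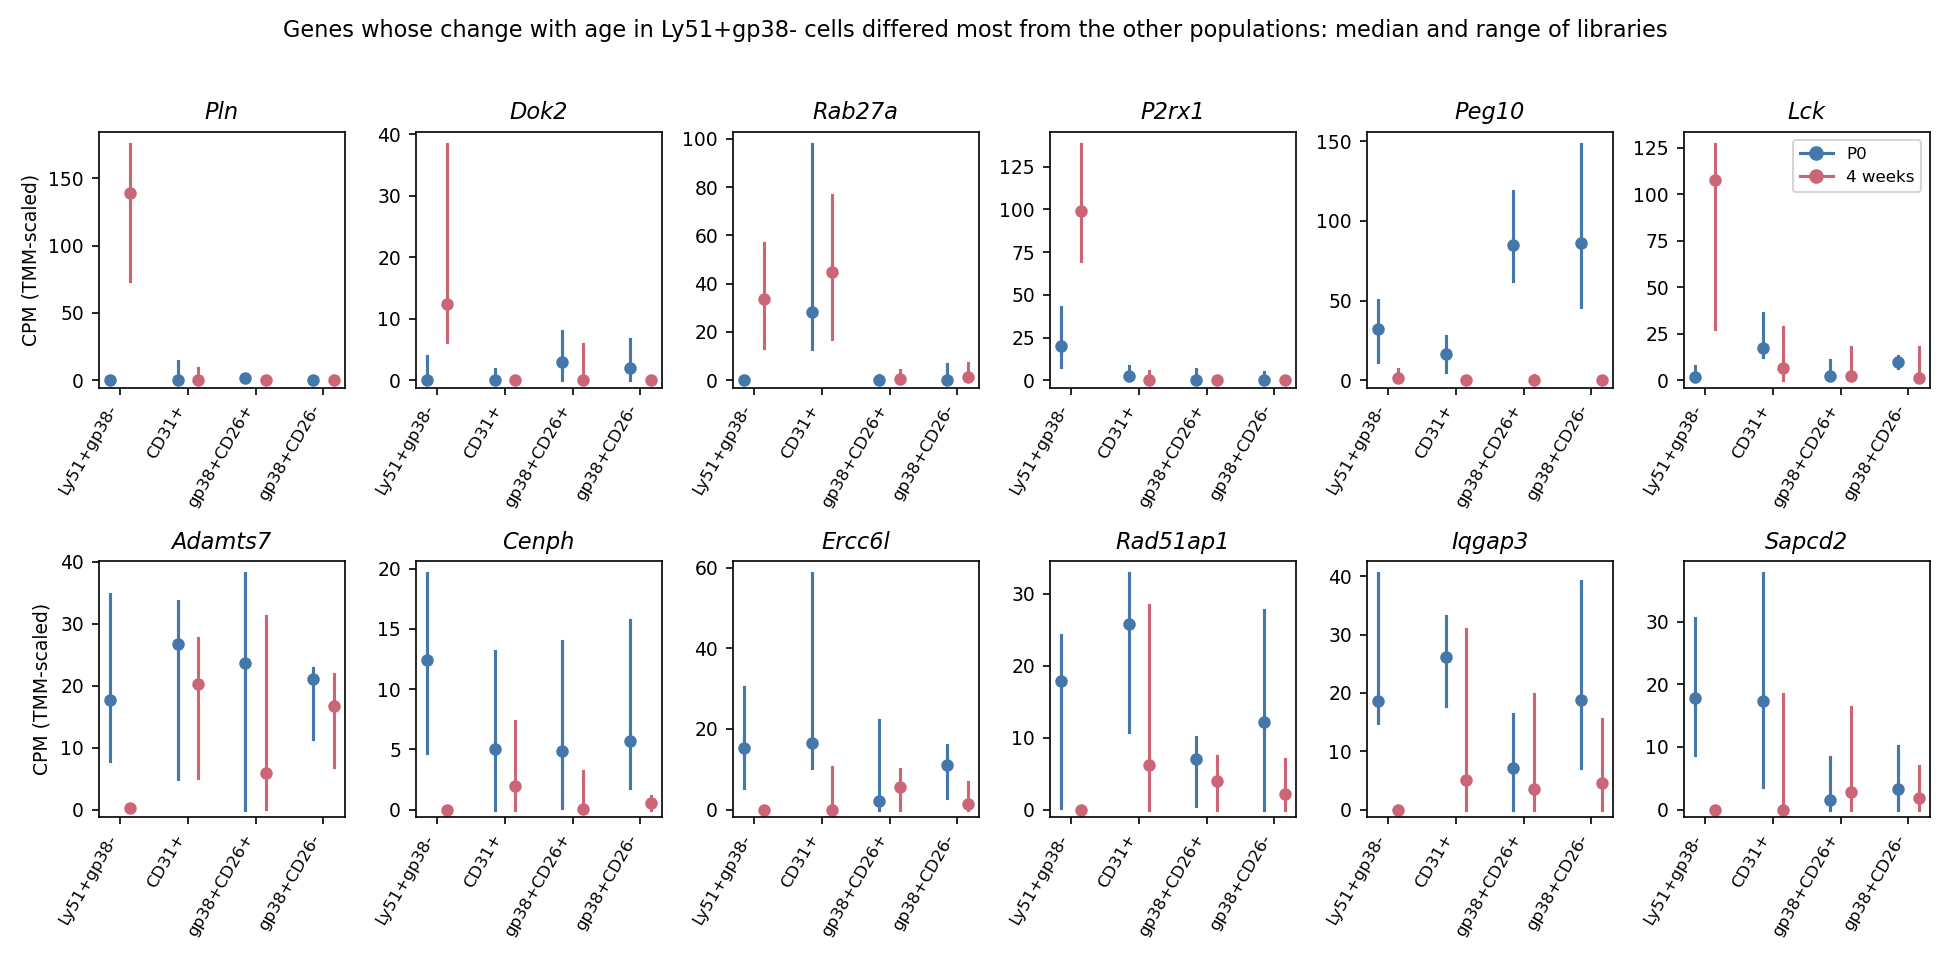
CPM (linear axes) of 12 genes whose mural change differed from the other populations, as the median (point) and the range (line) of the libraries of each of the 4 sorted populations at P0 (blue) and 4 weeks (red). They are the 6 in each direction with the largest fitted differences among called genes with a mean of at least 10 CPM in the higher mural age and no overlap of the mural ages, and for 9 of them that size depends on the prior count, so their order is not a ranking. In Ly51+gp38- cells *Pln*, *P2rx1* and *Lck* lie higher at 4 weeks than at P0, and *Sapcd2*, *Iqgap3* and *Ercc6l* are at 0 at 4 weeks.

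Single cells of the same ages gave a second view by another assay, from Ter119-CD45-EpCAM- cells of 2 libraries per age. The authors' labels named 2 mural subtypes, pericytes (Pc; 436 and 860 cells at P0, 440 and 336 at 4 weeks) and vascular smooth muscle (VSM; 449 and 618, then 304 and 327). Between 0 and 7 cell barcodes were shared between any pair of libraries. VSM made up 50.7 percent (exact binomial 95 percent interval 47.4 to 54.1) and 41.8 percent (39.3 to 44.4) of the mural cells at P0, and 40.9 percent (37.3 to 44.5) and 49.3 percent (45.5 to 53.2) at 4 weeks, so the ages overlapped; the intervals cover counting error only.

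UMIs were summed per library and subtype and tested with 2 libraries against 2. In Pc 3382 of 11096 genes were called (30.5 percent) and in VSM 2012 of 11427 (17.6 percent), but in VSM 62 rose and 42 fell without 4-week replicate 1 and 52 and 55 without 4-week replicate 2, and in Pc 2115 were called without 4-week replicate 1. Of the 694 genes that rose in bulk and were tested in Pc, 334 rose there (48.1 percent of the bulk list and 23 percent of the Pc list) and 43 fell. Of 597 that fell in bulk, 348 fell in Pc (58.3 percent and 21.6 percent) and 12 rose. In VSM 295 of 734 rose in both (40.2 percent and 33 percent) with 13 opposite, and 243 of 602 fell in both (40.4 percent and 26 percent) with 2 opposite.

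The contractile genes were also counted within the subtypes. In Pc 4 of 21 rose and 8 fell (median -0.20), against 14.4 percent higher and 16.1 percent lower over all genes, and in VSM 7 of 22 rose and 2 fell (median 0.19), against 8.33 and 9.28 percent. *Acta2* was at 3391 and 1585 CPM of Pc UMIs at P0 and at 994 and 1186 CPM at 4 weeks (-1.19, adjusted p = 0.00539). In VSM it was at 11288 and 8734 CPM and then at 8053 and 9669 CPM (-0.18, adjusted p = 0.462).

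*Tpm1* and *Tpm2* also fell in Pc, by 0.73 and 0.76, and *Cnn1* fell in Pc and in VSM, by 4.05 and 2.35. *Des* rose in both, by 0.72 and 0.89, as in bulk, and so did *Synpo2*, *Synm* and *Ppp1r12b*, which were chosen after their values were seen. *Pln* was at 8.18 and 6.66 CPM in VSM at P0 and at 155.4 and 149.04 CPM at 4 weeks (4.36, adjusted p = 0.000313), and at most 0.588 CPM in Pc. The difference between the assays was not tested.

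The potassium channel genes also differed by assay. *Kcnj8* was at 1115 and 1325 CPM in Pc at P0 and at 1749 and 1663 CPM at 4 weeks (0.48, adjusted p = 0.0122), and *Abcc9* rose there by 0.56, whereas both fell in bulk. *Rgs5* rose in Pc by 0.96 and in VSM by 1.23, and *Rgs4* by 1.90 and 2.24, in the direction of the bulk libraries. *Col18a1* and *Klf4* rose in bulk by 1.45 and 2.36 and fell in Pc by 3.05 and 2.70, and *Avpr1a* fell in bulk and rose in Pc by 0.89.

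Imprinted genes fell in 17 of 18 tested in Pc and 15 of 20 in VSM, and *Dlk1* went from 1255 and 1404 CPM to 39.5 and 58.1 CPM in Pc. Markers of other cells rose in the same sums, epithelial markers in 4 of 4 tested in Pc (median 2.13) and 2 of 3 in VSM (2.08), and thymocyte markers in 5 of 7 (1.65) and 3 of 7 (1.56). Endothelial markers rose in 4 of 7 in Pc (0.55) and 1 of 7 in VSM (0.84). Fibroblast markers rose in 3 of 7 and fell in 1 in Pc (0.57), and rose in 1 of 8 in VSM (1.12). The part of all these markers' cells in the changes was not tested. MHC class I genes rose in 14 of 21 and 9 of 22, and *B2m* went from 524 and 445 CPM to 890 and 982 CPM in Pc. Immediate early and heat shock genes fell in 22 of 27 in Pc and 21 of 27 in VSM, and *Fos* went from 5117 and 4691 CPM to 1128 and 971 CPM in Pc. *Enpep* rose in Pc from 23.8 and 16.7 CPM to 127.02 and 144.1 CPM (2.78, adjusted p = 3.71e-07).

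*Cxcl12* rose in Pc, from 228 and 242 CPM to 803 and 726 CPM (1.70), and was at 224 and 216 CPM and then 215 and 191.6 CPM in VSM (-0.11, adjusted p = 0.542). *Ccl19* rose in both subtypes, by 3.45 and 2.56, with 260.4 and 211 CPM in Pc at 4 weeks. *Ltbp1* rose in both by 1.74 and 1.18. *Sncg* rose in VSM from 22.7 and 8.19 CPM to 595 and 639 CPM (5.34), and *Scn4b*, at 0 in VSM at P0, was at 16.6 and 9.54 CPM at 4 weeks.

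**Figure D5:**
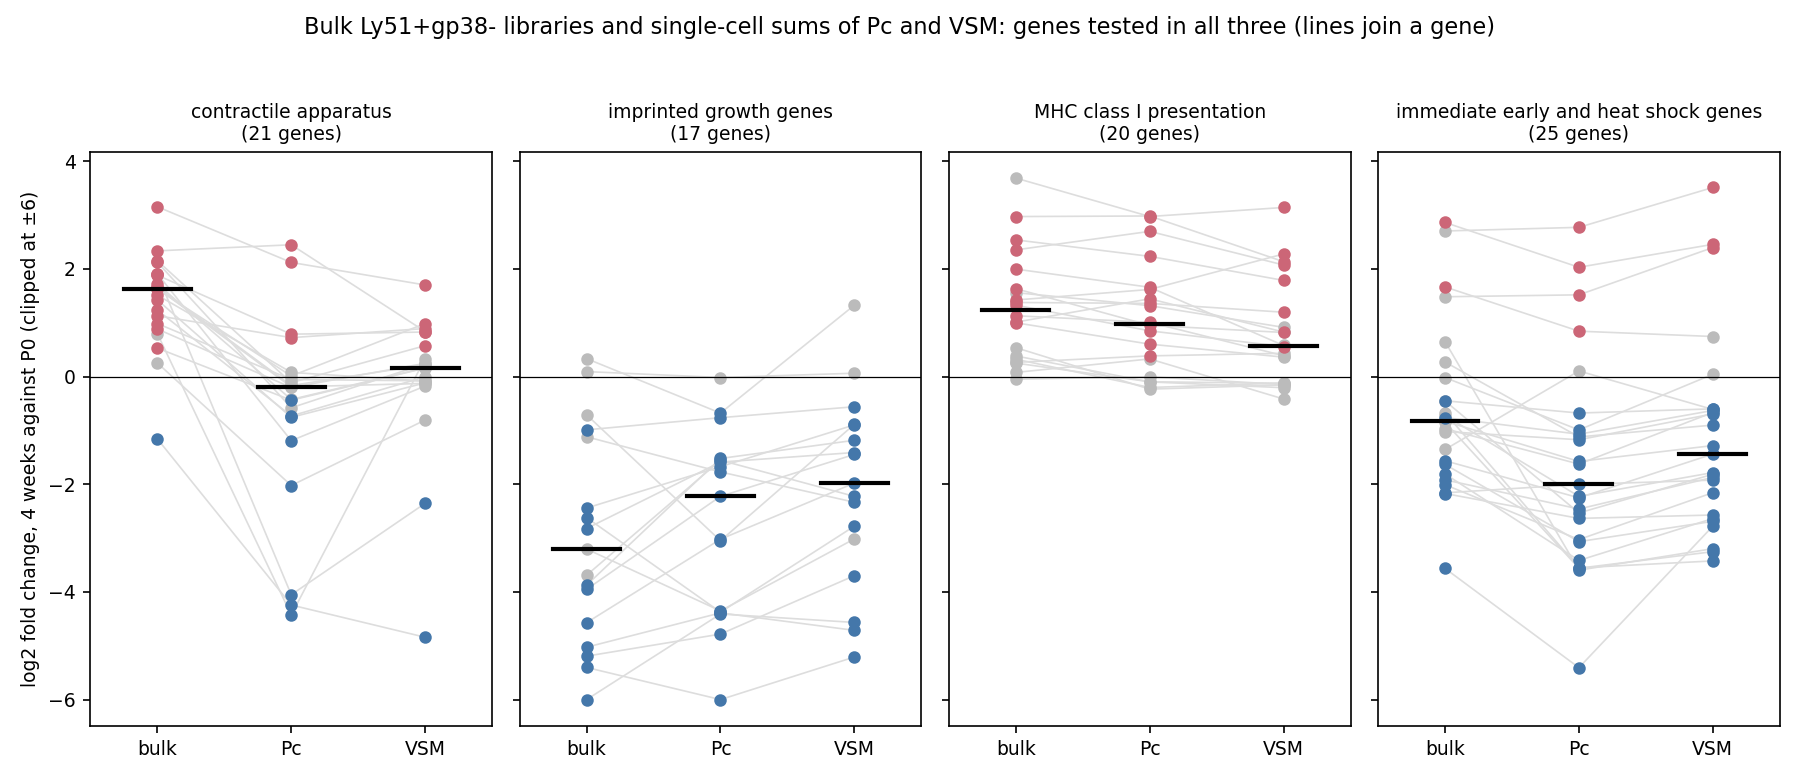
Log2 of 4 weeks over P0 (vertical axis, drawn at the edge beyond 6 in size) for the genes of 4 lists that were tested in the bulk Ly51+gp38- libraries and in the summed Pc and VSM cells, 1 point per gene with lines joining a gene, red for genes called higher, blue for lower and grey for the others, and a black bar at the median of the genes drawn. Contractile genes lie mostly above 0 in bulk and around 0 in Pc and VSM, and imprinted genes lie mostly below 0 in all 3.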

How the data were processed

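Bulk data were the deposited gene counts, which the authors made from sorted-cell RNA-seq reads. The submitters' processing notes name STAR 2.5.3a, HTSeq, Cell Ranger 3.1.0 and mm10, and the annotation version is not given in the sources used here. The authors' summary entries for reads in no gene, 10.4 to 14.4 percent of a mural library, and the 92 spike-in entries, all 0, were left out of library sizes and tests. Of 39179 gene IDs 37607 had a symbol, and the others held 0.171 percent of the mural counts. Libraries were grouped by the age and population in their titles, and replicates were numbered in the order deposited. No pair of replicates agreed within sampling noise. Gene positions are those of GENCODE in GRCm38, and promoters and their motifs come from RefSeq.

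Counts were tested with edgeR 4.0.16 in R 4.3.3 (filterByExpr, TMM factors, quasi-likelihood F test, Benjamini-Hochberg adjustment, threshold 0.05), which on genes with few counts gives fold changes that depend on the prior count, so that in the mural cells a gene at 0 throughout an age was given a bound against a floor of 3 counts over the 6 libraries. Differences between populations have no such bound. The difference between populations was an interaction contrast over 4 populations, in which the other libraries held 8454267 to 15560221 counts, apart from the 1 left out. For the single cells, the deposited UMI counts of cells that passed the authors' filters on genes, mitochondrial share and doublets were summed per library and by the authors' subtype label, giving 1843190 to 6329854 UMIs per sum, with a median of 4942 to 10467 UMIs per cell, lower at 4 weeks, and tested in the same way with 2 libraries per age. DESeq2 1.42.0, RLE factors, no filter, a fold threshold, the prefix as a term, each prefix alone, replicate blocks and leaving out each library were tried as alternatives. The code was tested on simulated counts with known fold changes. Tables and figures were made with Python 3.11.15, pandas 2.3.3, numpy 2.4.6, scipy 1.17.1 and matplotlib 3.10.9.

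The libraries compared and the gene lists were chosen with earlier results of these data known, so lists are described by counts and medians with no test of the list. Named were the 12 genes with the largest change in each direction (6 for the difference between populations) among called genes with a mean of at least 10 CPM in the higher group and no overlap between ages, up to 6 members of each list with the smallest p in each direction, all cell type markers, the sorting antigens, and the genes that the study names for both mural subtypes. Predicted and haemoglobin genes were skipped, and some genes that meet the rule are not reported here. Any other named gene was chosen after its values were seen.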

Additional observations from a re-analysis of the deposited data

Results flagged for a closer look

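In groups of 6 libraries, the highest or the lowest library was compared with the others by Dixon's criterion at the 95 percent level, which divides the gap to the nearest library by the group's range. For normally distributed values chance gives about 1 such group in 20, a rate that need not hold for CPM, so no excess is read from the count. Of 366 groups, each the 6 libraries of an age for 1 gene or marker sum named in the text, 34 held such a library. They were spread over 11 of the 12 libraries, with 6 in 4-week replicate 1, 4 each in 4-week replicates 2, 3 and 6 and P0 replicates 4 and 6, and 1 to 3 in the others that had any.

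At 4 weeks a single library stood above the other 5 for the pericyte and signalling genes *Avpr1a* (194.7 CPM), *Kcnmb1* (214.3 CPM), *Chrdl1* (118.0 CPM), *Id1* (130.5 CPM), *Sox6* (122.5 CPM) and *Tgfb1* (5.95 CPM). The same held for the chemokines *Ccl19* (563 CPM), *Ccl25* (979 CPM) and *Ccl2* (83.5 CPM), for the matrix genes *Col4a1* (887 CPM), *Col8a1* (21.1 CPM) and *Mfap2* (96.9 CPM), and for *Dok2* (38.8 CPM). Among genes that fell with age it held for *Dlk1* (53.2 CPM), *H19* (25.4 CPM), *Igf2bp3* (2.92 CPM) and *Hif3a* (7.51 CPM), and among clock genes for *Nr1d1* (218.3 CPM). *Enpep* had a single low library, at 14.5 CPM in 4-week replicate 6, although it encodes the antigen of the sort.

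At P0 a single library stood above the others for *Ccl21a* (2.48 CPM), *Tmem255b* (2.06 CPM), *Bhlhe41* (11.4 CPM), *Col4a5* (60.4 CPM), *Id1* (67.3 CPM), *Gucy1a1* (1560 CPM), *Col1a2* (2631 CPM), *Col3a1* (3619 CPM), *Pecam1* (4.79 CPM) and *Ptprc* (6.63 CPM), or below them, as *Igf2r* was at 91.5 CPM and *Igf2bp2* at 35.4 CPM. Summed markers stood apart for endothelial cells at P0 (717 CPM), fibroblasts at P0 (985 CPM, in the library with the high *Col1a2* and *Col3a1*) and mesothelial cells at 4 weeks (6.63 CPM).

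For 41 genes named in the text the change with age in mural cells differed from the mean change in the other 3 nonepithelial populations. Above it were *Pln* (10.62 on the log2 scale), *Dok2* (8.60), *Rab27a* (7.52), *P2rx1* (7.34), *Peg10* (6.55), *Dpp4* (6.31), *Lck* (5.48), *Hif3a* (4.58), *Ubd* (3.87), *Mcam* (3.71), *C3* (3.40), *Igf2* (2.96), *Col18a1* (2.45), *Klf4* (1.57), *Plpp3* (1.41), *Tpm1* (1.21), *Myl6* (1.04) and *Flna* (0.96). Below it were *Sapcd2* (-10.01), *Iqgap3* (-9.92), *Rad51ap1* (-9.03), *E2f1* (-8.68), *Ercc6l* (-8.54), *Cenph* (-6.12), *Adamts7* (-5.61), *Gnas* (-2.54), *Bmp1* (-1.94), *Plpp1* (-1.67), *Igf2r* (-1.67), *Fbn1* (-1.54), *Lamb1* (-1.40), *Nid1* (-1.05), *Tapbp* (-0.58), *Psmb8* (-1.08), *H2-T22* (-0.78), *H2-Q6* (-5.43), *Loxl4* (-9.01), *Col8a1* (-7.02), *Efemp1* (-3.32), *Ltbp4* (-2.71) and *P4hb* (-0.48). For 18 of them, *Pln*, *Dok2*, *P2rx1*, *Peg10*, *Dpp4*, *Hif3a*, *Mcam*, *C3*, *Sapcd2*, *Iqgap3*, *Rad51ap1*, *E2f1*, *Ercc6l*, *Cenph*, *H2-Q6*, *Loxl4*, *Col8a1* and *Efemp1*, a population held 3 counts or fewer over the libraries of an age, so the value depends on the prior count of the fit and is no measured size.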

How the results depend on the processing

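In the mural libraries 1422 genes were called between the ages. The count was 276 when tested against a log2 fold change of 1, 762 within TXCK, 301 within DFCK and 731 with a term for Y-linked counts, the last added after the data were seen, as was the fit without the 2 epithelial-rich libraries. Leaving out 1 library at a time gave 1189 to 1459 calls. Of the named genes tested, none that was called in either fit changed sign under these alternatives, 67 lost their call when tested against a log2 fold change of 1, 35 with the Y-linked term, 21 without the 2 epithelial-rich libraries, 16 in at least 1 of the fits that leave out 1 library, 42 lost theirs within TXCK and 72 within DFCK, where 3 libraries per age were left, and 47 in the fit over the 4 nonepithelial populations.

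For the difference from the other populations, 438 calls became 259 with the shallow gp38+CD26+ library put back, 894 with DESeq2, 273 without the 2 epithelial-rich libraries, and 321 to 408 with 1 mural library left out. Set against a single population, the difference turned sign for *C3* (-0.12 against gp38+CD26+, -0.26 against gp38+CD26-), *Cspg4* (-4.56), *Ebf1* (-1.18), *Psmb8* (0.24) and *H2-K1* (1.35) against CD31+, and *Myl6* (-0.003 against gp38+CD26-).

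In the single cells, 3382 calls in Pc became 1871 with DESeq2 and 2115 to 3707 with 1 library left out, the lowest without 4-week replicate 1. In VSM 2012 calls became 3241 with no filter on low counts, and 104 to 3196 with 1 library left out, where the lone library of an age is assumed to vary like the pair of the other; the lowest counts came without either 4-week library, and the highest without P0 replicate 2. The share of VSM among mural cells changed by -1.15 percentage points between the means of the ages, by -5.6 to 3.3 with 1 library left out, and by 0.765 as a share of all nonepithelial stromal cells.

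No paired analysis was possible because the P0 and 4-week bulk libraries share no number in the labels. The numbers in their titles run in the same steps in the 4 populations of an age, and same-step libraries lay on the same side of 1 CPM of Y-linked counts in 35 of 35 pairs. In 21 of the pairs the same-step library was also the mural library's best match. Shared animals across the populations of an age are thus possible, and the main fit treated the populations as independent. The labels name no shared animal, and the deviations from the group means correlated at only -0.025 to 0.085 (median 0.025). None was above 0.1, the level used here for taking numbers as pairs. With them as a replicate block, added after the data were seen, 333 genes were called for the difference from the other populations and 9 named genes lost their call, *Bmp1*, *Dpp4*, *Efemp1*, *Ercc6l*, *H2-Q6*, *Klf4*, *Loxl4*, *P2rx1* and *Tapbp*. The single-cell libraries carry numbers 1 and 2, and their deviations from the group means correlated at 0.0279 in Pc and -0.214 in VSM, so the numbers were not taken to pair them. With the number as a replicate block 3275 genes were called in Pc and 1041 in VSM. With the pairing crossed, a choice made after the data were seen, the counts were 3331 and 3473. At the depth of these libraries a gene at 0 in an age could still have held 0.0383 CPM at P0 or 0.0485 CPM at 4 weeks, counting error only.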

Other observations

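The clock genes went both ways in bulk. Of 16 tested 3 rose and 1 fell. With the Y-linked term, without the 2 epithelial-rich libraries, within TXCK and within DFCK 1, 1, 1 and 0 rose and 0, 1, 0 and 0 fell, and with 1 library left out 1 to 4 rose and 0 to 2 fell, the fewest rises without P0 replicate 1, no fall without P0 replicate 4 or 5 and 2 without 4-week replicate 3. *Arntl*, the core activator, was at 18.7, 30.01 and 53.5 CPM at P0 and at 48.9, 63.8 and 92.6 CPM at 4 weeks (1.02, SE 0.26), and it rose in Pc and VSM as well, by 2.07 and 1.91. *Per1*, a repressor, fell from 31.7, 44.2 and 105 CPM to 0, 5.81 and 13.8 CPM in bulk and by 1.66 and 1.74 in Pc and VSM. *Bhlhe41* rose by 2.99 in bulk. *Nr1d1*, another repressor, rose by 1.91 in bulk and fell by 1.92 in Pc. The hour at which the mice were taken is not given in the sources used here.

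Of 18 tested glucocorticoid-responsive genes 1 rose and 5 fell (median -0.83, or -0.50 within TXCK and -1.24 within DFCK), and in the same 4 refits 0, 1, 1 and 0 rose and 4, 4, 3 and 2 fell. *Hif3a* went from 47.4, 79.1 and 107.7 CPM to 0, 0.826 and 7.51 CPM (-5.51, SE 0.95), and fell in Pc and VSM by 2.83 and 3.04. *Sgk1*, a kinase, fell by 1.88, *Cebpd*, a transcription factor, by 1.66, *Sult1a1* by 1.70 and *Tsc22d3* by 0.87, whereas *Klf9*, another factor, rose by 0.70. In the summed single cells *Cebpd* fell too, by 1.32 and 2.09, and *Sgk1* was at 49.1 and 38.1 CPM at P0 and 33.5 and 34.6 CPM at 4 weeks in Pc (edgeR quasi-likelihood test, adjusted p = 0.152).

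The erythroid marker sum at 4 weeks followed the title prefix, with 401 to 558 CPM in the 3 TXCK libraries and 3.41 to 75.1 CPM in the 3 DFCK libraries, and was at most 1.72 CPM in the 6 P0 libraries.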
